A study of Homo sapiens with 25 samples.

Results

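In NB4 cells kept for 24 h with MC_2580, 3468 regions carried an H3K4me2 peak that the matching DMSO list did not hold. NB4 is a human leukemia cell line of the acute promyelocytic type, and MC_2580 is an inhibitor of the histone demethylase LSD1. The regions were chosen from the authors' peak lists by 2 measured conditions. A peak of the MC_2580 list had to have a score of 100 or more, and it had to share not even 1 base with any H3K4me2 peak of the DMSO list. Of the 50736 peaks in the MC_2580 list, 37531 reached that score, and 9.24% of these were gained in this sense. The score is the peak caller's own value for each peak and rises as its p-value falls.

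Chromatin immunoprecipitation with sequencing (ChIP-seq) gave lists for H3K4me1, H3K4me2, H3K4me3 and H3K27ac in 5 conditions: DMSO (the solvent), MC_2580, retinoic acid (RA) at a low dose of 0.01 µM and at a high dose of 1 µM, and MC_2580 together with the low dose of RA, called the combination. LSD1 was mapped in DMSO and in MC_2580, and GFI1 in untreated cells. All cells were from this 1 line. Treatments lasted 24 h, the GFI1 cells had none, and no MC_2580 dose was found in the labels. With 1 library for each antibody in each condition there is no replicate spread to judge a difference by, and no p-value is given. The intervals in the text are 95% intervals that cover counting error only, and regions are not replicates of a condition.

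LSD1 (KDM1A) takes methyl groups off mono- and dimethylated lysine 4 of histone H3 and does not act on the trimethylated form. GFI1 is a transcriptional repressor of blood cells that binds DNA and brings LSD1 to its sites. H3K4me1 lies over enhancers and the flanks of promoters, H3K4me2 over both, H3K4me3 mainly over promoters, and H3K27ac over active elements of either kind. RA binds the PML-RARA fusion protein of these leukemia cells and leads them toward granulocytes.

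The gained regions were mostly weak and narrow peaks. Their scores had a median of 136 with quartiles of 114 and 179, and 81.5% were under 200. Only 37 regions scored 500 or more, and 3 scored 1000 or more. Their median width was 542 bases, and all of them together covered 2.07 Mb. The 34063 MC_2580 peaks of the same minimum score that did overlap a DMSO peak, called shared peaks, had a median score of 937 and a median width of 1218 bases. In the opposite direction, 354 of 29092 H3K4me2 peaks of the DMSO list with a score of 100 or more (1.22%) had no overlap in the MC_2580 list and are called lost peaks. The MC_2580 list is also the longer one, with 50736 peaks against 40598 in DMSO, and whether its library was read more deeply is not known from these files. Gained regions made up between 7.11% and 11.8% of the MC_2580 peaks on each of 23 chromosomes.

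The score threshold did not fall at a gap. There were 335 gained regions with scores from 100 to 105, and 415 peaks without a DMSO overlap with scores from 95 to 100. Just inside lay chr17:69493076-69493523 with a score of 100 and chr2:15999592-16000090 with 100.02. Just outside, both with a score of 99.98, lay chr2:130632534-130632930 and chr6:87639050-87639446. All coordinates are on hg18, the build named in the submitters' processing notes. No gene annotation of that build was used here, so the regions are named by position and not by gene.

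The gained regions fell into 4 groups by the LSD1 and GFI1 peaks on them. An LSD1 peak from either list lay on 1445 regions (41.7%), beside 56.8% of all MC_2580 peaks of score 100 or more. A GFI1 peak lay on 901 regions (26.0%), beside 28% of all such peaks. Both lay on 648 regions (18.7%), beside 23.2% of all such peaks. LSD1 without GFI1 was found on 797 regions (22.98%), beside 33.7% of all such peaks, and GFI1 without LSD1 on 253 (7.30%), beside 4.8%. Neither was found on 1770 regions (51.0%, 49.4 to 52.7), beside 38.4% of all such peaks. The LSD1 lists hold only high-scoring peaks, with no score below 234.04 in DMSO and below 357 in MC_2580, so weaker LSD1 binding would not be seen.

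Peaks from both LSD1 lists lay on 906 gained regions (26.1%), beside 33.2% of all MC_2580 peaks of score 100 or more. Peaks from the MC_2580 list alone lay on 438 (12.6%), beside 22.3%, and from the DMSO list alone on 101 (2.91%), beside 1.26%. Over all scores, LSD1 in both lists was thus less frequent on gained regions than over all such peaks. The latter scored higher, with a median of 696 against 136, and this split was not compared within score ranges. Where GFI1 peaks met a gained region, their median score was 124, and 99.2 where they met a shared peak.

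Gained regions differed from lost peaks in the presence of both proteins. LSD1 lay on 41.7% of gained regions and 18.4% of lost peaks, a difference of 23.3 points (18.6 to 27.3). GFI1 lay on 26.0% and 7.06%, a difference of 18.9 points (15.5 to 21.6). Only 12 of the 354 lost peaks carried both proteins, and 78.0% carried neither. The shares over all DMSO peaks of score 100 or more are not given here. Lost peaks were the weaker set, with a median score of 117. Among peaks of score 100 to 200, LSD1 lay on 38.7% of gained regions and 18.3% of lost peaks, and GFI1 on 23.5% and 6.96%.

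Against shared peaks the differences depended on whether peaks of like score were compared. Over all scores, the share with LSD1 on gained regions minus that on shared peaks was -16.7 points (-18.4 to -15.0), and for GFI1 it was -2.21 points (-3.72 to -0.652). Stronger H3K4me2 peaks carried each protein more often, and shared peaks were stronger. Among peaks of score 100 to 200, GFI1 lay on 23.5% of gained regions and 17.0% of shared peaks, a difference of 6.50 points (4.68 to 8.35). In the same range LSD1 lay on 38.7% and 40.8%, a difference of -2.10 points (-4.28 to 0.0928). Both proteins together lay on 16.2% and 12.2% (3.94 points, 2.38 to 5.57). From score 200 to 500 the share with GFI1 was 35.0% against 23.7%, and at 500 or more it was 64.9% of 37 regions against 32.9%. GFI1 was therefore more frequent on gained regions than on shared peaks within each of the 3 score ranges, while the pooled difference had the opposite sign. For LSD1, the difference was 1.15 points (-2.99 to 5.25) from score 200 to 500. At 500 or more it was 2.24 points (-13.9 to 15.1). In the lowest range, the share with both proteins was higher in gained regions on 18 of 23 chromosomes.

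**Figure D1:**
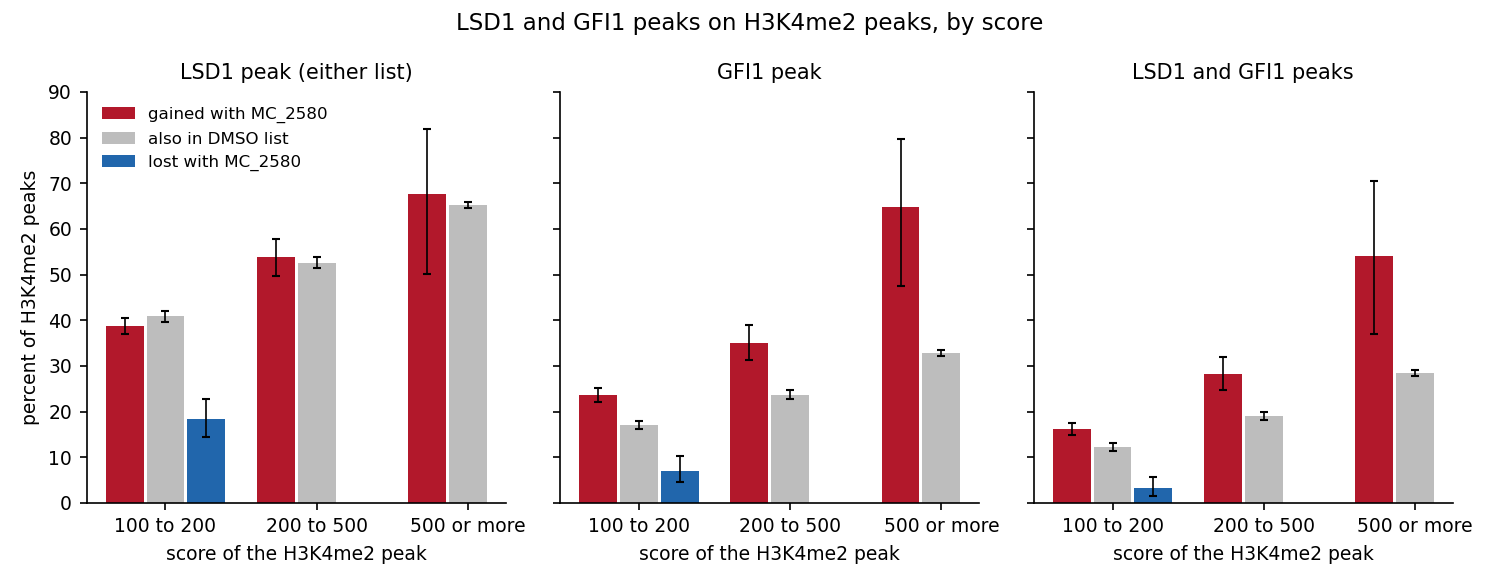
Percent of H3K4me2 peaks (vertical axis) with an LSD1 peak, a GFI1 peak or both, by score of the H3K4me2 peak (horizontal axis), for gained regions, shared peaks and lost peaks. Bars carry 95% exact binomial intervals, and lost peaks are drawn only in the lowest range, since 9 lie above it. In the middle panel the gained regions stand above the shared peaks in every range, from 23.5% against 17.0% to 64.9% against 32.9%.

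Centres of GFI1 peaks were found near the centre of a gained region more often than near that of a shared peak of like score. The shares below are over all regions, with or without the protein, so they partly restate the overlap shares above. Among gained regions of score 100 to 200, 19.3% had the centre of a GFI1 peak within 500 bases of their own centre. Among shared peaks in that range the share was 13.0%. For LSD1 in DMSO the shares were 14.6% and 10.97%. Among lost peaks 5.93% had a GFI1 centre that near.

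Many gained regions lay beside an H3K4me2 peak of the DMSO list, called existing H3K4me2 below. Within 1 kb of a DMSO H3K4me2 peak lay 1251 regions (36.1%, 34.5 to 37.7), from 1 to 5 kb 20.5%, from 5 to 20 kb 21.7%, and farther than 20 kb another 21.7%. The median distance was 3142 bases. For 473 regions (13.6%) a DMSO peak lay within 5 kb on both sides, and for 130 (3.75%) within 1 kb on both sides. Lost peaks were near peaks of the MC_2580 list as well, with 44.9% within 1 kb.

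The groups differed in how far they lay from existing H3K4me2. Regions with LSD1 alone were most often edges, with 52.4% (48.9 to 55.96) within 1 kb and a median distance of 786 bases. Regions with GFI1 alone were least often edges, with 12.3% (8.48 to 16.9) within 1 kb and a median distance of 8926 bases. With both proteins the share within 1 kb was 28.4% (24.95 to 32.0), and with neither it was 34.9% (32.7 to 37.2).

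**Figure D2:**
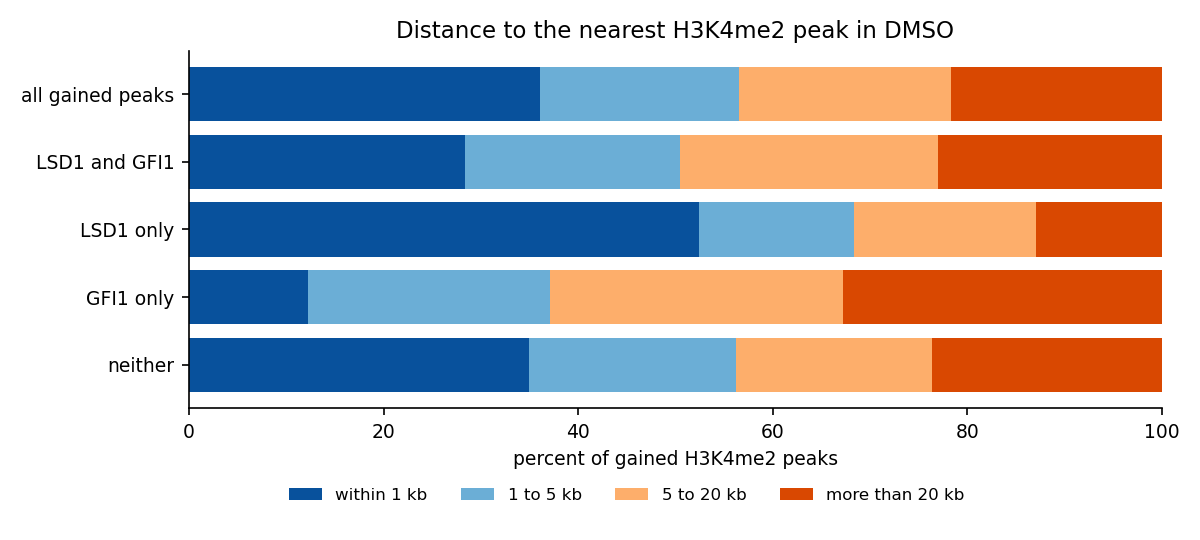
Percent of gained H3K4me2 regions (horizontal axis) in 4 classes of distance to the nearest H3K4me2 peak of the DMSO list, for all regions and for each group. Regions with LSD1 alone have the longest segment within 1 kb (52.4%), and regions with GFI1 alone the shortest (12.3%).

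Most gained regions carried H3K4me1 in DMSO. An H3K4me1 peak of the DMSO list lay on 2979 regions (85.9%), beside 92.3% of all MC_2580 peaks of score 100 or more. Of the gained regions, 83.4% lay wholly inside such a peak, 2.45% crossed its edge and 14.1% had none. With LSD1, H3K4me1 was nearly always there: 96.1% of regions with both proteins and 97.2% with LSD1 alone, against 89.3% with GFI1 alone and 76.6% with neither. The H3K4me1 peaks were wide, with a median of 2525 bases, so a narrow H3K4me2 peak seldom reached their edge.

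Most gained regions lacked H3K4me3 in DMSO. The rule removed every region with an H3K4me2 peak in DMSO, while every shared peak has one. H3K4me2 and H3K4me3 both lie over promoters, so these shares describe the regions and support nothing on their own. A DMSO H3K4me3 peak lay on 779 regions (22.5%), beside 68.3% of all MC_2580 peaks of score 100 or more. Among peaks of score 100 to 200 the shares were 23.6% in gained regions and 50.9% in shared peaks, a difference of -27.2 points (-29.2 to -25.2). Wholly inside a DMSO H3K4me3 peak lay 15.3% of the gained regions, and 7.18% crossed its edge. Near existing H3K4me2 the picture was different: 46.6% of regions within 1 kb of a DMSO H3K4me2 peak carried H3K4me3 in DMSO, against 10.1% from 1 to 5 kb, 7.17% from 5 to 20 kb and 9.30% farther away.

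The pattern typical of distal elements, H3K4me1 without H3K4me3, was thus the most frequent state in DMSO. It was found in DMSO on 2244 gained regions (64.7%), beside 26% of all MC_2580 peaks of score 100 or more. The latter scored higher, with a median of 696 against 136, and this pattern was not compared within score ranges. Its share was 81.3% with both proteins, 79.1% with GFI1 alone, 66.5% with LSD1 alone and 55.8% with neither. On 1202 regions (34.7%) H3K4me1 was present while the nearest DMSO H3K4me2 peak lay more than 5 kb away, and this was so for 47.2% of regions with both proteins and 55.3% with GFI1 alone.

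Regions with no called mark in DMSO were a minority. No H3K4me1, H3K4me3 or H3K27ac peak of the DMSO lists lay on 422 regions (12.2%), beside 5.48% of all MC_2580 peaks of score 100 or more. Of these 422 regions, 364 carried neither LSD1 nor GFI1, 26 GFI1 alone, 20 both and 12 LSD1 alone. These were 20.6%, 10.3%, 3.09% and 1.51% of their groups. Of the 422, 279 also lay more than 5 kb from any DMSO H3K4me2 peak.

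H3K27ac in DMSO lay on 51.5% of gained regions, beside 71.5% of all MC_2580 peaks of score 100 or more. It was on 79.3% of regions with LSD1 alone, 53.5% with both proteins, 40.2% with neither and 37.9% with GFI1 alone. H3K4me1 without H3K27ac was found on 35.8% of gained regions, beside 21.8% of all such peaks. Its share was 43.4% with both proteins, 51.8% with GFI1 alone, 38.2% with neither and 19.1% with LSD1 alone.

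The next values compare MC_2580 with DMSO in the lists of the other marks. These lists did not choose the regions, but they come from the same pair of conditions, so the values describe the regions and support nothing on their own. An H3K4me3 peak lay on 47.8% of gained regions in MC_2580, beside 80.9% of all MC_2580 peaks of score 100 or more, and on 22.5% in DMSO. Of the gained regions, 891 (25.7%) had H3K4me3 in MC_2580 and not in DMSO, beside 12.9% of all such peaks, and 14 had it in DMSO alone. With both proteins the share with H3K4me3 was 15.1% in DMSO and 63.4% in MC_2580, with LSD1 alone 31.9% and 61.2%, with GFI1 alone 10.3% and 39.1%, and with neither 22.7% and 37.2%. The difference between the conditions was 33.8 points (29.5 to 38.0) larger with both proteins than with neither, 18.9 points (13.9 to 24.0) larger than with LSD1 alone and 19.4 points (12.6 to 26.3) larger than with GFI1 alone. The H3K4me3 list of MC_2580 holds 29872 peaks and that of DMSO 21688. With the longer list cut to the length of the shorter by score, the difference over all gained regions was 13.7 points in place of 25.3, and with both proteins 27.6 in place of 48.3. With 50% reciprocal overlap in place of 1 base, which also changes the set of gained regions, it was 0.644 points (0.170 to 1.12) over all and 17.4 points with both proteins. The 50% rule then held for the H3K4me3 overlaps too, so a region under 50% of a peak's width did not count as overlapping it. H3K4me3 peaks were wide, with medians of 2437 bases in DMSO and 2623 in MC_2580. These values therefore cannot be read as a loss of the difference.

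In the full lists, the difference in H3K27ac between MC_2580 and DMSO had different signs among the groups. Over all gained regions it lay on 48.0% in MC_2580, beside 64.7% of all MC_2580 peaks of score 100 or more, and on 51.5% in DMSO. H3K27ac in MC_2580 alone was found on 266 gained regions (7.67%), beside 2.56% of all such peaks. H3K27ac in DMSO alone was found on 389 (11.2%), beside 9.36%. With both proteins, 121 regions had it in MC_2580 alone and 47 in DMSO alone, a difference of 11.4 points (7.60 to 15.2). With LSD1 alone, 41 had it in MC_2580 alone and 105 in DMSO alone (-8.03 points, -10.9 to -5.11). With GFI1 alone the numbers were 30 and 25 (1.98 points, -3.76 to 7.72), and with neither 74 and 212 (-7.80 points, -9.63 to -5.96). The DMSO list is longer here, with 32789 H3K27ac peaks against 24552 in MC_2580, and lists of equal length turned the difference over all gained regions from -3.55 to 2.42 points. With both proteins the difference kept its sign and was 18.7 points at equal length. Lists of equal length were not applied to the other groups. The negative differences with LSD1 alone and with neither therefore cannot be told apart from list length. Shared peaks of every group also had H3K27ac more often in DMSO alone than in MC_2580 alone. The shares were 7.59% against 1.25% with LSD1 alone and 12.0% against 1.86% with neither.

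H3K4me1 lay on 86.8% of gained regions in MC_2580, beside 91.7% of all MC_2580 peaks of score 100 or more, which is 0.923 points (0.148 to 1.70) above its share in DMSO. With both proteins, 22 regions (3.40%) had H3K4me1 in MC_2580 alone and 1 in DMSO alone, and with GFI1 alone 13 (5.14%) and 2. With LSD1 alone the numbers were 10 and 7, and with neither 65 and 68. Of all shared peaks, 1.12% had H3K4me1 in MC_2580 alone and 1.95% in DMSO alone. H3K4me3 and H3K27ac were both in MC_2580 and not in DMSO on 119 gained regions (3.43%), beside 0.799% of all such peaks. Of these 119 regions, 77 carried both LSD1 and GFI1, which is 11.9% of that group against 1.07% of the group with neither.

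The RA lists of H3K4me2 took no part in the choice of the regions. An H3K4me2 peak lay on 41.4% of gained regions in RA at 0.01 µM, on 49.0% with the high dose of 1 µM and on 73.7% in the combination. Over all MC_2580 peaks of score 100 or more the shares were 87.8%, 87.2% and 94.2%. On gained regions, 1256 had H3K4me2 in the combination and not in RA at 0.01 µM, and 138 the reverse, a difference of 32.2 points (30.4 to 34.1). Over all MC_2580 peaks of score 100 or more, 8.19% had it in the combination and not in RA at 0.01 µM, and 1.76% the reverse. The combination was above RA at 0.01 µM on 23 of 23 chromosomes. The combination list holds 45463 peaks and that of RA at 0.01 µM 39302, and at equal length the difference was 21.1 points. With 50% reciprocal overlap it was 10.4 points (9.22 to 11.6).

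The lost peaks showed no such difference. An H3K4me2 peak lay on 40.1% of them at the low RA dose, 45.5% at the high dose and 44.9% in the combination. The difference between the combination and RA at 0.01 µM was 4.80 points (-0.338 to 9.94). In RA at 0.01 µM gained regions and lost peaks differed by 1.32 points (-4.11 to 6.56), while the combination held 28.8 points (23.3 to 34.1) more of the gained ones.

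The groups with and without GFI1 differed more in the lists of RA alone than in the combination. With both proteins, H3K4me2 lay on 22.8% of regions at the low RA dose, 28.7% at the high dose and 77.2% in the combination. With GFI1 alone the shares were 28.9%, 35.2% and 70.8%. With LSD1 alone they were 46.4%, 52.4% and 77.4%, and with neither 47.8%, 56.8% and 71.1%. The share with both proteins minus that with neither was -24.96 points (-28.8 to -20.9) at the low dose and -28.1 points (-32.2 to -23.8) at the high dose. In the combination it was 6.03 points (2.06 to 9.78). That last difference was 3.20 points (-1.70 to 7.84) among regions of score 100 to 200 and -0.161 points (-5.59 to 4.87) at a minimum score of 200, but 14.7 points at a minimum score of 50 and 27.1 with 50% reciprocal overlap. The difference between the combination and RA at 0.01 µM was 54.3 points with both proteins and 23.3 with neither, which are 31.0 points apart (26.3 to 35.7). Among regions of score 100 to 200 it was 50.5 points with both and 23.4 with neither, and with lists of equal length it was 43.4 points with both.

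**Figure D3:**
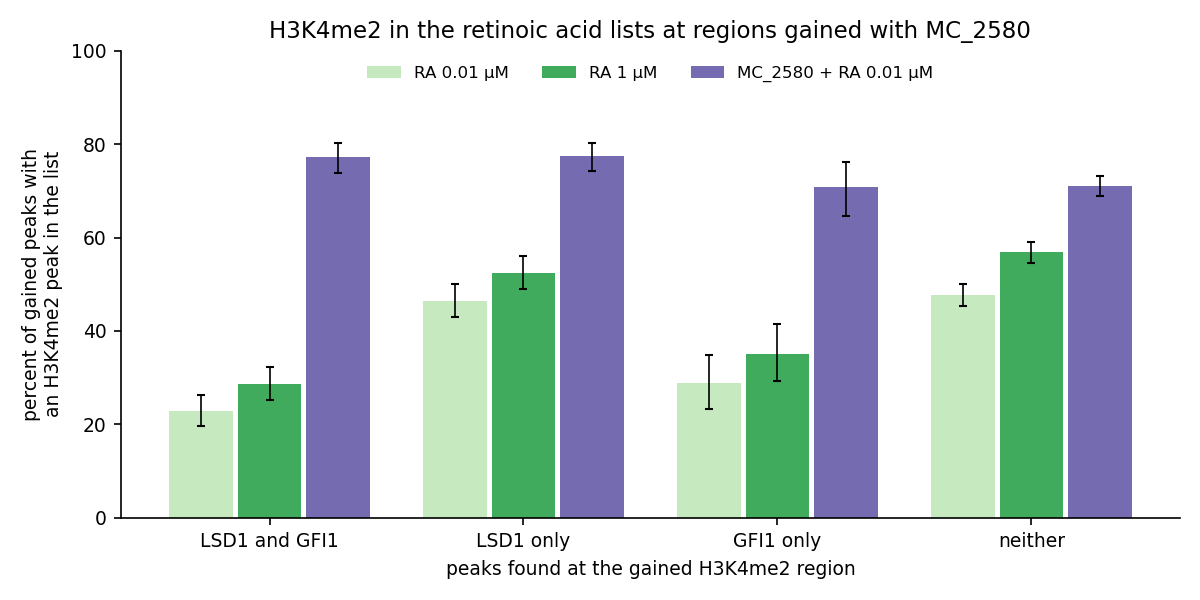
Percent of gained regions (vertical axis) with an H3K4me2 peak in the lists of RA at 0.01 µM (pale green), RA at 1 µM (green) and the combination (purple), by the proteins found on the region. Error bars are 95% exact binomial intervals. The combination bars stand between 70.8% and 77.4% in all 4 groups, while RA at 0.01 µM ranges from 22.8% with both proteins to 47.8% with neither.

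The same contrast shows in the patterns over the 3 lists. H3K4me2 in all 3 was found on 1061 gained regions (30.6%), beside 82% of all MC_2580 peaks of score 100 or more. H3K4me2 in the combination and in neither list of RA alone was found on 775 (22.3%), beside 4.29% of all such peaks. None of the 3 lists held 669 regions (19.3%), beside 3.33%. With both proteins, the combination alone was the most frequent pattern (42.3%), ahead of none (20.7%) and all 3 (13.9%). With neither, all 3 was the most frequent (35.9%), ahead of none (18.8%) and the combination alone (14.6%). RA without the inhibitor, at either dose, had H3K4me2 on 66.7% of the regions with neither protein and on 37.0% of those with both.

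The share in the combination was much the same at every distance from existing H3K4me2. In the combination, H3K4me2 lay on 74.2% of gained regions within 1 kb of a DMSO peak, 72.7% from 1 to 5 kb, 77.0% from 5 to 20 kb and 70.4% beyond 20 kb. In RA at 0.01 µM the shares were 45.6%, 44.3%, 38.2% and 35.1%. GFI1 lay on 17.2% of regions within 1 kb and on 30.8% beyond 20 kb.

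When the combination was set beside RA at 0.01 µM, H3K27ac and H3K4me3 were more frequent in the combination with both proteins. With neither they were slightly less frequent, by -2.99 and -3.11 points. The H3K27ac lists hold 41191 peaks in the combination and 55793 in RA at 0.01 µM, and the H3K4me3 lists 26963 and 27712. Lists of equal length were not applied here, so the small differences with neither cannot be told apart from list length. H3K27ac lay on 60.7% of gained regions in the combination and 53.6% in RA at 0.01 µM, beside 76.3% and 76% of all MC_2580 peaks of score 100 or more. With both proteins the shares were 72.5% and 42.1%, with 222 regions in the combination alone and 25 in RA alone. With neither they were 46.4% and 49.4%. The difference between the lists was 33.4 points (28.7 to 38.1) larger with both proteins than with neither. H3K4me3 lay on 40.3% of gained regions in the combination and 36.4% in RA at 0.01 µM, beside 75.7% and 76.3% of all such peaks. With both proteins the shares were 51.4% and 29.2%, and with neither 32.3% and 35.4%. For the H3K4me3 combination sample the title names RA at 1 µM while the treatment field names 0.01 µM. It was used under the treatment field, and in RA at 1 µM H3K4me3 lay on 24.7% of regions with both proteins.

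**Figure D4:**
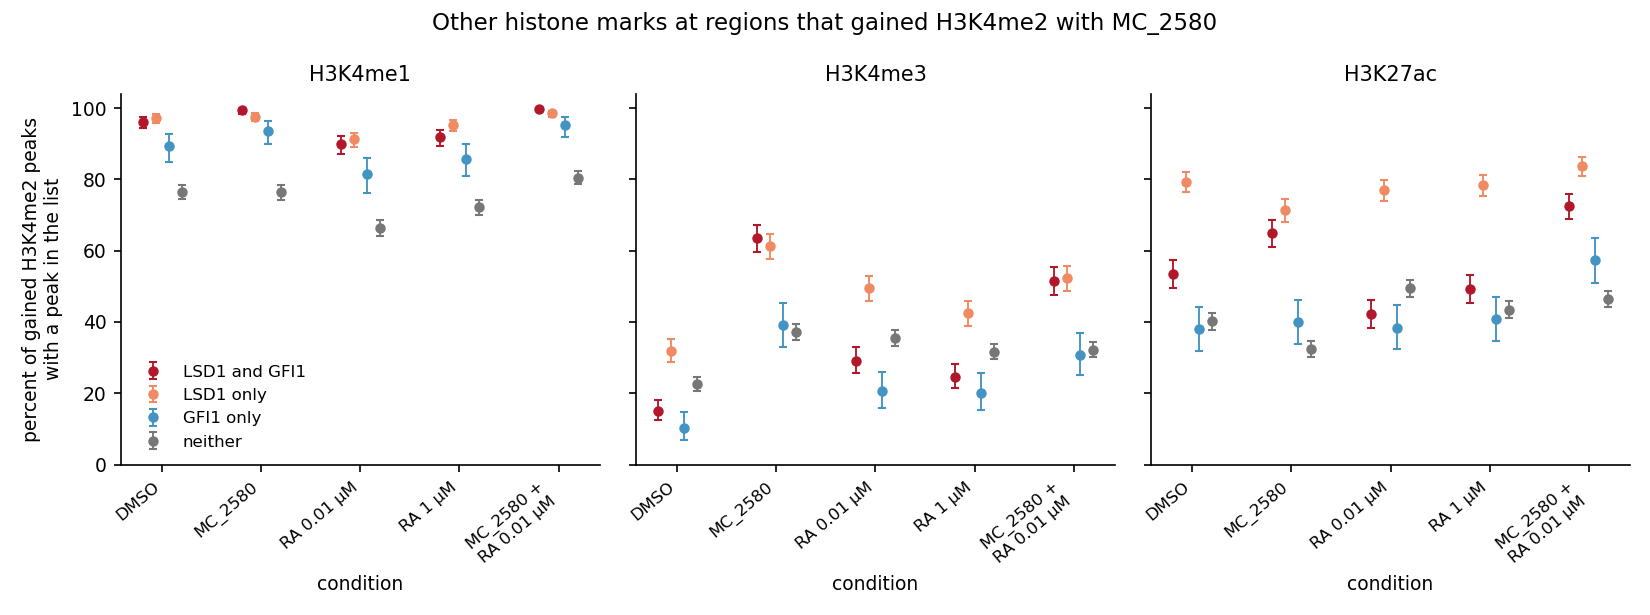
Percent of gained regions (vertical axis) with a peak of H3K4me1, H3K4me3 or H3K27ac in each of the 5 conditions (horizontal axis), by the proteins on the region, with 95% exact binomial intervals. For H3K4me3 the regions with both LSD1 and GFI1 stand at 15.1% in DMSO and at 63.4% and 51.4% in the lists with MC_2580.

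The rule that chose the regions was then applied to lists it had not used. Of 34382 combination peaks of score 100 or more, 2976 (8.66%) had no overlap in the list of RA at 0.01 µM, and of 29308 peaks of that RA list 231 (0.788%) had none in the combination. LSD1 and GFI1 were both on 21.7% (20.3 to 23.3) of the former, beside 23.1% of all combination peaks of that score, and on 3.46% (1.51 to 6.71) of the latter, beside 23.3% of all such peaks at the low RA dose. In the gained regions and lost peaks of MC_2580 against DMSO the shares were 18.7% and 3.39%. Between the RA doses, where neither library had MC_2580, 2575 of 34411 peaks of the higher dose (7.48%) were absent at the lower and 711 of 29308 (2.43%) were absent at the higher. Both proteins lay on 7.84% (6.84 to 8.95) of the former, beside 20.8% of all peaks at the high dose, and on 16.7% (14.1 to 19.7) of the latter. Peaks found in the combination and not in RA at 0.01 µM thus carried both proteins about as often as all combination peaks of that score. Peaks found in RA at 0.01 µM and not in the combination carried them less often. Such peaks were weak, with median scores of 141 and 117, and these shares were not compared within score ranges. H3K4me2 peaks of MC_2580 lay on 71.3% of the 2976 combination peaks, and those of DMSO on 41.8%. Of the 2976 peaks of the combination, 577 (19.4%) overlapped a gained region, and of the 3468 gained regions 585 (16.9%) overlapped one of these peaks.

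The strongest gained regions show what the shares stand for. Scores of different lists depend on the library and are not compared in size below. The highest score, 3009.37, was at chr6:37030100-37032334, a region 2235 bases wide with LSD1 in both lists and GFI1, which lay 27865 bases from the nearest DMSO H3K4me2 peak. In DMSO it had H3K4me1 (score 592.96) and neither H3K4me3 nor H3K27ac. In MC_2580 it had H3K4me3 (2913.59) and H3K27ac (1135.17), and in the combination H3K4me2 (3100), H3K4me3 (3100) and H3K27ac (1937.5). RA at 0.01 µM had no H3K4me2 or H3K4me3 peak there, and RA at 1 µM had H3K4me2 with a score of 119.38. H3K4me2 and H3K4me3 peaks were thus found there in both conditions with the inhibitor, and an H3K4me3 peak in no other.

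The second, chr22:41122640-41123358 (score 2876.68, LSD1 and GFI1), had H3K4me2 in the combination (1515.56) and in no list of RA alone. It carried H3K4me1 in DMSO with a score of 126.18 and in MC_2580 with 1516.63, but H3K4me3 in no condition. The third, chr16:85525527-85526448 (1339.97, LSD1 and GFI1), had none of the 4 histone marks in DMSO. In MC_2580 it held H3K4me1 (825.07) and H3K4me3 (248.05), and among the RA lists only the combination held H3K4me2 (1680.18). Among regions bare in DMSO, the next by score was chr8:55249533-55250047 (851.94), also with both proteins, with H3K4me2 in the combination (695.36) and, close to the floor of 50, in RA at 1 µM (51.94). The widest gained region, chr1:24110715-24113016 with 2302 bases, carried both proteins too and had H3K4me3 in DMSO (177.66).

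The strongest regions of the other groups varied among themselves. With LSD1 alone the strongest, chr19:48758760-48759278 (803.67), had H3K4me1 and H3K27ac in all 5 conditions and H3K4me2 in all 3 RA lists (575.87 at the low dose, 1469.94 at the high dose, 1771.79 in the combination). The next, chr11:44952576-44952909 (750.5), lay 8 bases from a DMSO H3K4me2 peak, an edge of an existing peak in the plain sense. The third, chr19:17775000-17775668 (632.12), had its LSD1 peak in the MC_2580 list only and H3K4me2 in the combination only. With GFI1 alone, chr18:22476398-22477402 (553.3) was bare in DMSO and had H3K4me1, H3K4me3 and H3K27ac in MC_2580 and in the combination and no peak of these marks in either list of RA alone. In contrast, chr20:60893056-60893422 (523.2) had H3K27ac in all 5 conditions and H3K4me2 in all 3 RA lists. The third, chr5:35265421-35266349 (522.27), lay 248670 bases from a DMSO H3K4me2 peak and had H3K4me2 in all 3 RA lists with no other histone mark in any condition.

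With neither protein, chr19:40323740-40324683 (693.95) and chr12:131562008-131562813 (621.63) had H3K4me2 in all 3 RA lists, and chr19:473666-474415 (668.34) in RA at 1 µM and the combination. The second of these had H3K27ac at a score of 3100 in all 5 conditions and lay 174 bases from a DMSO H3K4me2 peak. The strongest region without H3K4me2 in any RA list was chr12:89170585-89171937 (344.26), with both proteins and with H3K4me1 in all 5 conditions.

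**Figure D5:**
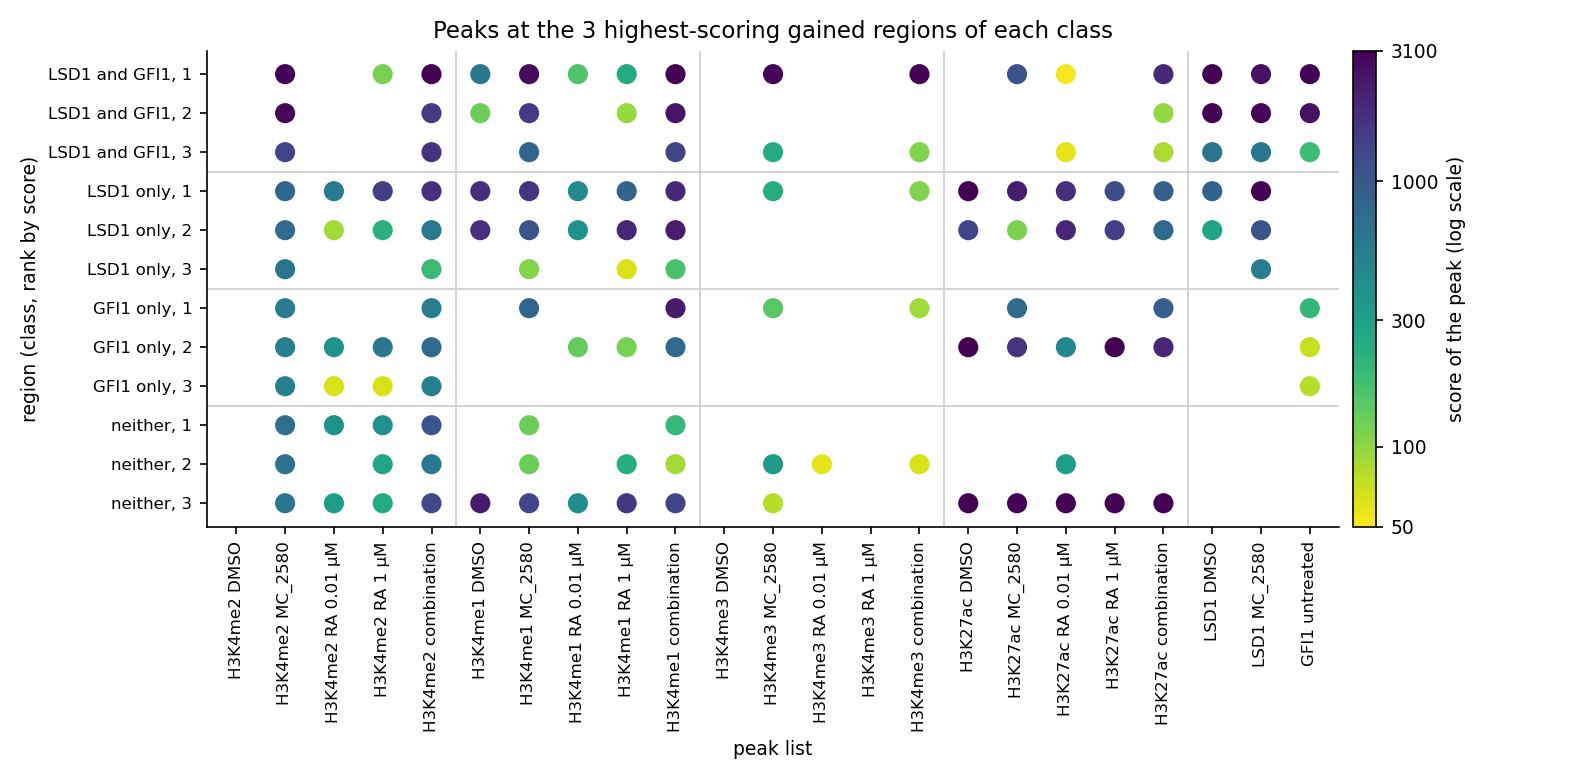
Peaks of all 23 lists (horizontal axis) at the 3 highest-scoring gained regions of each group (vertical axis, group and rank). A dot is a peak and its colour the score on a log scale, and scores are comparable within a list only. The H3K4me2 DMSO column is empty by the rule, and all 12 regions have a dot in the combination column of H3K4me2.

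Gained regions were spread over the genome. Of the 2767 windows of 100 kb that held any, 2238 held 1, and 123 held 3 or more, with 12.1% of all gained regions among them. The most in a window was 6, in 3 windows. In chr17:72900001-73000000 they were 4 regions with LSD1 alone and 2 with neither protein. In chr17:76900001-77000000 3 had both proteins, 1 LSD1 alone and 2 neither. In chr19:5000001-5100000 1 had both and 5 neither. These windows held 21, 26 and 12 H3K4me2 peaks in DMSO.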

How the data were processed

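Peak lists of 23 of the 25 samples were used; the 2 input samples were not used here. Per the submitters' processing notes, Bowtie 1.0.1 and MACS 1.4.1 were among the tools, with hg18. Each list belongs to 1 library. The score in each deposited list was set by the authors' peak caller from the peak's p-value. Its floor is 50 except in the LSD1 lists, which had passed a further filter that the labels do not describe. Scores pile up at 3100. Read depth is unknown.

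Overlaps (1 base or more) were found with NumPy 2.4.6 under Python 3.11.15, intervals with SciPy 1.17.1 and figures with Matplotlib 3.10.9. Shares have exact (Clopper-Pearson) intervals, differences between sets Newcombe intervals, and differences between lists at the same regions normal intervals from the regions found in 1 list only. On simulated data of 20000 peaks the code recovered all 2000 planted gains and 300 losses. Named regions are the 3 highest-scoring of each group, the top region of the RA patterns none, all 3 and combination only, the 2 strongest bare in DMSO, the widest, the 3 fullest windows of 100 kb, and the 2 on each side of the threshold. The regions and lists were chosen with earlier results of these data known. The gene table at hand is on GRCh38.p14, so no gene names or sequences are given. Alternatives were other minimum scores, a 50% reciprocal overlap, a distance above 1 kb, DMSO peaks of score 100 or more, 500 bases around the centre, 1 minimum score for LSD1, autosomes only and joined regions.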

Additional observations from a re-analysis of the deposited data

How the results depend on the processing

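Depth is unknown, so a region absent from the DMSO list may have lain just under its floor of 50. Across 11 alternatives and 14 results, 111 of 134 values kept their direction and side of 0, or for counts and plain shares stayed near the main value. The 3468 gained regions became 11317 at a minimum score of 50, 643 at 200, 9323 with 50% reciprocal overlap, 2217 at more than 1 kb from every DMSO peak, and 7189 when only DMSO peaks of score 100 or more counted. The share within 1 kb (36.1%) was 31.7% at a minimum score of 200, 76.2% with reciprocal overlap and 28.5% with DMSO peaks of score 100 or more. GFI1 on gained regions minus shared peaks (-2.21 points) was 6.16 at a minimum score of 200, 0.252 with reciprocal overlap, 2.75 at more than 1 kb, 2.02 within 500 bases of the centre and 6.50 for scores of 100 to 200, but -7.36 at a minimum score of 50, -6.73 with regions joined and -4.54 with DMSO peaks of score 100 or more. Both proteins together (-4.96 points) reached 3.66 at a minimum score of 200 and 3.94 for scores of 100 to 200, but -8.95 at a minimum score of 50 and -8.88 with regions joined. The LSD1 difference (-16.7 points) was -2.10 for scores of 100 to 200. In the combination, both proteins minus neither (6.03 points) was -0.161 at a minimum score of 200, 2.34 at more than 1 kb and 3.20 for scores of 100 to 200, but 14.7 at a minimum score of 50 and 27.1 with reciprocal overlap. H3K27ac in MC_2580 minus DMSO (-3.55 points) was 2.64 at a minimum score of 200, 0.118 with reciprocal overlap and 2.42 with lists of equal length; for regions with both proteins (11.4 points) it was 1.21 (-2.91 to 5.34) with reciprocal overlap. With reciprocal overlap the 50% rule held for the other lists too. A region under 50% of a peak's width then did not count as overlapping that peak. In DMSO the median width was 2787 bases for H3K27ac peaks and 2437 for H3K4me3 peaks. The cause of the changes above was not tested. H3K4me2 in the combination minus RA at 0.01 µM at regions with both proteins ranged from 40.9 to 63.4 points, and over all gained regions from 10.4 with reciprocal overlap to 40.3 at a minimum score of 200. H3K4me3 in MC_2580 minus DMSO (25.3 points) ranged from 0.644 with reciprocal overlap to 32.7 at a minimum score of 200. The score range of 100 to 200 and the lists of equal length were chosen after seeing the data. Differences between lists were paired over the same regions, but replicate libraries could not be paired because each antibody and condition has 1 library.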

Other observations

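The 7849 peaks of the MC_2580 list with scores under 100 and no DMSO overlap, which the threshold left out, showed a like contrast between those with both proteins and those with neither. LSD1 and GFI1 were both on 789 of them (10.1%) and neither on 4970 (63.3%). With both proteins, H3K4me2 lay on 15.8% at the low RA dose of 0.01 µM, 16.0% at the high dose of 1 µM and 46.9% in the combination, and with neither on 22.7%, 31.5% and 36.9%. With both proteins, 56.4% had H3K4me3 in MC_2580 and 17.1% in DMSO, and with neither 36.8% and 24.4%.

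At shared peaks with both proteins, H3K27ac was lower in MC_2580 than in DMSO (83.7% against 87.2%), whereas at gained regions with both proteins it was higher (65.0% against 53.5%). The DMSO list of H3K27ac is the longer, with 32789 peaks against 24552 in MC_2580. Lists of equal length were not applied to shared peaks, so the lower share there cannot be told apart from list length. In the combination and RA at 0.01 µM the shared peaks with both proteins had H3K27ac at 92.1% and 85.4%.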
